A study of Mus musculus with 24 samples.

Results

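Transcript levels of 6 genes of ketone body synthesis, export and use were examined in the livers of fed and fasted mice with or without hepatocyte p110α. The 6 genes were Acat1, Bdh1, Bdh2, Slc16a1, Slc16a6 and Oxct1, of 37325 genes with a probe on the arrays. They were taken by gene name from the probes outside the controls, of which 8 of 56605 carried one of these names. Each gene was read from its probe with the highest mean signal over 24 arrays, and the second probes of Bdh1 and Oxct1 served as a check. All 8 probes were well above background on 6 of 6 arrays in every group and passed the filter on dim probes, as did the main probe of 21488 genes.

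The mice were 12-week-old males, and each liver was hybridised to 1 array, with 6 mice in each of 4 groups. LWT_Fed and LWT_Fasted mice were littermates that carried floxed Pik3ca alleles and no Cre, so that p110α, a catalytic subunit of phosphoinositide 3-kinase, was intact. LKO_Fed and LKO_Fasted mice carried the same floxed alleles with Cre under the albumin promoter, which is active in hepatocytes, and deletion in other liver cells was not examined. Fed mice had free access to food, fasted mice had none for 24 h, and all were killed at ZT16, which is counted in hours from lights on. Whole liver was profiled, so fewer cells of a type and less RNA per cell cannot be told apart.

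Ketone bodies are made in the mitochondria of hepatocytes when fatty acids from adipose tissue supply more acetyl-CoA than the citric acid cycle takes up. Insulin restrains this pathway and fasting opens it. The liver releases acetoacetate and 3-hydroxybutyrate through carriers of the monocarboxylate transporter family, and other tissues turn them back into acetyl-CoA with an enzyme that hepatocytes barely make.

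The share of spots well above background ran from 54.7% to 63% over the arrays. The probe of Pik3ca averaged 11.91 on the log2 scale in LWT_Fed, 12.28 in LWT_Fasted, 12.54 in LKO_Fed and 12.26 in LKO_Fasted. It was higher in LKO among fed livers (0.58, adjusted p = 0.00156) and did not pass among fasted livers (-0.02, adjusted p = 0.931), with an interaction of -0.60 (adjusted p = 0.0316). Where this probe lies relative to the deleted exons was not examined, so it does not check the genotype, and LWT and LKO below are the arrays labelled so. All 8 hepatocyte markers, among them Alb and Ttr, were well above background on 6 of 6 arrays in each group. The 4 groups were spread evenly over 3 slides, 2 arrays a group on each. A slide effect passed the test for 100 of 32197 probes, whereas its adjusted p was at least 0.641 for each of the 6 genes. The lowest array weights were 0.317 for LWT_Fed replicate 3, 0.356 for LKO_Fasted replicate 4 and 0.442 for LWT_Fasted replicate 2. These arrays lay at the lowest or the highest end of their group for 4, 6 and 3 of the 6 genes, and the other arrays for 0 to 5, with LWT_Fed replicate 2, of weight 1.26, at 5. In the fit to all 24 arrays an array with a low weight counts less, and a call that depends on 1 array is given with that array named. LKO_Fasted replicates 1 and 2, which stood apart from the rest of their group in an earlier look at all genes, were also left out together, which changed no call for the 6 genes.

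Promoters of 4 of the 6 genes, all but Acat1 and Slc16a6, were matched in a RefSeq table of mouse assembly GRCm38.p6, which held 250 bases before and 50 after each start site. The windows of Slc16a1, Bdh1 and Bdh2 are shown because their response to fasting differed between the genotypes, and capitals mark the E box of Slc16a1.
Slc16a1, chr3:104638414-104638713, plus strand: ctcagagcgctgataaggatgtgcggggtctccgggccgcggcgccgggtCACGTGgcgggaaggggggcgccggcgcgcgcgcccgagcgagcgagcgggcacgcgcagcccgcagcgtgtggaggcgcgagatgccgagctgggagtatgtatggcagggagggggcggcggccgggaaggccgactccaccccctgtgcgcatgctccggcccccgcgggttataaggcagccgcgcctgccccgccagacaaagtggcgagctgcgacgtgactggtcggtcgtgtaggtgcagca
Bdh1 first start, chr16:31422047-31422346, plus strand: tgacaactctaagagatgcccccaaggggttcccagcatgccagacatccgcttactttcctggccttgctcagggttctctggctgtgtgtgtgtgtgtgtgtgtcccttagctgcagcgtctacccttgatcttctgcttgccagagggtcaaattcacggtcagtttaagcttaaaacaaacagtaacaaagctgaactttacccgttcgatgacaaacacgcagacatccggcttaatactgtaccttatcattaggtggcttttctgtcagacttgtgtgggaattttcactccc
Bdh1 second start, chr16:31428503-31428802, plus strand: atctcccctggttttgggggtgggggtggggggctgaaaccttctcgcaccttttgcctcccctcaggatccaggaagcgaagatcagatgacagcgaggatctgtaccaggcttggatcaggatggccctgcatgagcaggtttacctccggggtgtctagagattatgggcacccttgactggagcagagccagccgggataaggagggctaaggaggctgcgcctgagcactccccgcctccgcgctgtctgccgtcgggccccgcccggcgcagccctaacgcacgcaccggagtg
Bdh2, chr3:135280971-135281270, plus strand: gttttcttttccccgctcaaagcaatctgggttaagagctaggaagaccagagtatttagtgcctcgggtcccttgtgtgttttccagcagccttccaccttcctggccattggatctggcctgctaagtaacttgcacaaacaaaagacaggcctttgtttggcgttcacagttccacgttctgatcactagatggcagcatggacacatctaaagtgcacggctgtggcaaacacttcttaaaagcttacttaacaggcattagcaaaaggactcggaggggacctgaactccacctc

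The Slc16a1 window was 73.7% G and C with 42 CpG sites, against a median of 52.7% and 7 CpG sites over 32851 promoters of the same length. The Bdh2 window held 48.7% G and C with 6 CpG sites. The first and the second start of Bdh1 held 48.3% with 7 CpG sites and 63.7% with 17. On both strands, 5 motifs were searched, namely the PPAR direct repeat (AGGNCA, a spacer of 1 base and AGGNCA), the FOXO site GTAAACA, the CREB half-site TGACGT, the E box CACGTG and the TATA box TATAAA. They occurred in 0.381%, 3.65%, 7.51%, 7.15% and 13.6% of all promoters. The only match in the 5 windows of the 4 genes, Oxct1 included, was the E box of Slc16a1, from -200 to -195 relative to the start site and overlapping no other motif searched. A match in these letters is a description of the window and not a binding site.

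The first question was how fasting moved these genes in livers with intact p110α. In LWT mice, fasting raised Acat1 and Slc16a1 and lowered Bdh2, Slc16a6 and Oxct1, by between 1.29-fold and 2.07-fold. Bdh1 did not pass the test. A gene passed at an adjusted p of at most 0.05 in limma, over all 32197 probes. By this rule 5 of 6 genes passed, when 40.7% of the 21488 genes did. With a fold over 1.5 added, 4 of 6 passed against 9.98% of all genes. Arrays of fed and fasted mice did not overlap for 4 of the 6, against 21.6% of all genes.

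Acat1 encodes mitochondrial acetoacetyl-CoA thiolase, which condenses acetyl-CoA at the entry to the pathway, and its probe lies at chr9:53389868-53389927 (mm9, minus strand). The log2 signal of Acat1 had a lowest, median and highest value of 13.03, 13.07 and 13.25 in LWT_Fed and of 13.61, 13.72 and 13.87 in LWT_Fasted. Every fasted liver thus lay above every fed liver. Acat1 rose by 0.62 in the fit (SE 0.0979, adjusted p = 2.54e-05), which is 1.54-fold. Within the 3 slides the difference was 0.67, 0.72 and 0.52.

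Bdh1 encodes the mitochondrial 3-hydroxybutyrate dehydrogenase that interconverts acetoacetate and 3-hydroxybutyrate, and its probe lies at chr16:31457378-31457437 (mm9, plus strand). The log2 signal of Bdh1 was 13.92 at the lowest, 14.28 at the median and 14.53 at the highest in LWT_Fed, and 14.09, 14.29 and 14.81 in LWT_Fasted. The groups overlapped almost fully, with 3 of 6 fasted livers above the fed median. The fit gave a change of -0.05, with a 95% interval of -0.31 to 0.20 and an adjusted p of 0.764. On the second Bdh1 probe it was 0.01, with an interval of -0.25 to 0.28.

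Bdh2 encodes a cytosolic dehydrogenase of the short-chain family that also acts on 3-hydroxybutyrate, and its probe lies at chr3:134967309-134967368 (mm9, plus strand). The lowest, median and highest log2 signals of Bdh2 were 11.82, 12.12 and 12.37 in LWT_Fed and 10.69, 10.96 and 11.73 in LWT_Fasted. All fasted livers were below all fed livers. Bdh2 changed by -1.05 on the log2 scale (SE 0.159, adjusted p = 1.66e-05), which is 2.07-fold, and the change ran from -1.27 to -0.72 within slides.

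Slc16a1 encodes MCT1, a proton-linked carrier of lactate, pyruvate and ketone bodies, and its probe lies at chr3:104460941-104461000 (mm9, plus strand). Its log2 signal was 11.80 at the lowest, 11.92 at the median and 12.00 at the highest in LWT_Fed, and 12.33, 12.60 and 12.91 in LWT_Fasted. The groups did not overlap, and the SD was 0.08 among fed and 0.22 among fasted livers. Slc16a1 rose by 0.69 (SE 0.0896, adjusted p = 2.19e-06), which is 1.62-fold, with 0.76, 0.70 and 0.61 within the slides.

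Slc16a6 encodes MCT7, a carrier of the same family, and its probe lies at chr11:109314058-109314117 (mm9, minus strand). Log2 signals of Slc16a6 were 10.17, 10.39 and 11.06 (lowest, median, highest) in LWT_Fed and 9.33, 9.82 and 10.14 in LWT_Fasted. The groups came close to each other without overlap. In the fit Slc16a6 changed by -0.72 (SE 0.174, adjusted p = 0.00207), or 1.65-fold lower. Within slides it varied from -1.40 to -0.17.

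Oxct1 encodes the mitochondrial CoA transferase with which other tissues convert acetoacetate to acetoacetyl-CoA, and its probe lies at chr15:4105196-4105255 (mm9, plus strand). Its log2 signal was 8.65, 8.88 and 9.00 (lowest, median, highest) in LWT_Fed and 8.34, 8.50 and 8.99 in LWT_Fasted. Only 1 fasted liver was above the fed median, and the groups overlapped through that liver, replicate 2. For Oxct1 the log2 fold change was -0.37 (SE 0.111, adjusted p = 0.01), or 1.29-fold lower, and -0.32 on the second probe (adjusted p = 0.0139). Without array weights it was -0.28 and no longer passed (adjusted p = 0.0841). By slide the difference was -0.02, -0.41 and -0.42, so slide 1 showed almost no fall.

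**Figure D1:**
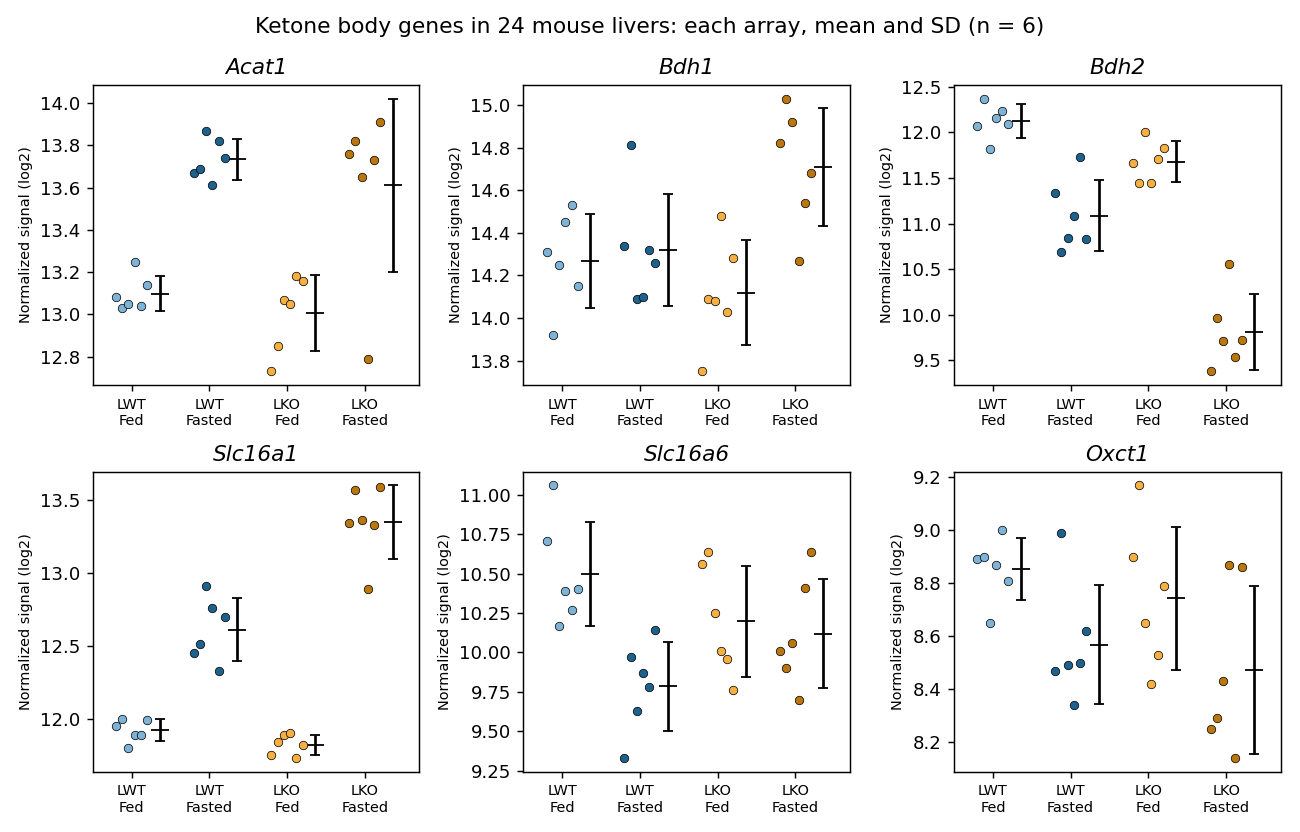
Normalized log2 signal of each of the 6 genes on each of 24 arrays, by group, with the mean and SD of 6 arrays to the right of the points; each panel has its own vertical axis. Slc16a1 is highest and Bdh2 lowest in LKO_Fasted, and LKO_Fasted replicate 4 lies at 12.79 for Acat1, among the fed livers.

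The same comparison was then made in livers labelled as lacking p110α. In LKO mice, fasting raised Acat1, Bdh1 and Slc16a1 and lowered Bdh2, by between 1.59-fold and 3.92-fold. Slc16a6 and Oxct1 did not pass the test. The count was 4 of 6, against 41.3% of all genes, and the same 4 had a fold over 1.5, against 12.7%. Arrays did not overlap for 2 of the 6, Bdh2 and Slc16a1, against 22.1% of all genes.

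Acat1 had a lowest, median and highest log2 signal of 12.73, 13.06 and 13.18 in LKO_Fed and of 12.79, 13.75 and 13.91 in LKO_Fasted. The lowest fasted value belonged to replicate 4, and the other 5 fasted livers were above every fed liver. In the fit Acat1 rose by 0.71 (SE 0.107, adjusted p = 1.38e-05), and 0.78 without replicate 4.

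Bdh1 was 13.75 at the lowest, 14.09 at the median and 14.48 at the highest in LKO_Fed, and 14.27, 14.75 and 15.03 in LKO_Fasted. All 6 fasted livers were above the fed median, with overlap at the edges. Bdh1 rose by 0.67 (SE 0.132, adjusted p = 0.000295), which is 1.59-fold. The second probe gave 0.63 (adjusted p = 0.000995), and the slides gave 0.46, 0.84 and 0.47.

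Bdh2 was 11.44, 11.69 and 12.00 (lowest, median, highest) in LKO_Fed and 9.38, 9.72 and 10.56 in LKO_Fasted. Its highest fasted value, again from replicate 4, was still below every fed value. Its log2 fold change was -1.97 (SE 0.173, adjusted p = 6.87e-09), or 3.92-fold lower, with -1.37 on the slide that carried replicate 4 and -2.06 and -2.17 on the other slides.

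Slc16a1 was 11.73, 11.83 and 11.90 (lowest, median, highest) in LKO_Fed and 12.89, 13.35 and 13.59 in LKO_Fasted. The fed livers lay close together (SD 0.07), and every fasted liver lay above them. Slc16a1 rose by 1.56 (SE 0.0976, adjusted p = 5.56e-11), which is 2.95-fold, with 1.40, 1.60 and 1.57 within the slides.

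Slc16a6 ranged from 9.76 to 10.64 in LKO_Fed, with a median of 10.13, and from 9.70 to 10.64 in LKO_Fasted, with a median of 10.04. These ranges nearly coincided. In the fit Slc16a6 changed by -0.06, with a 95% interval of -0.45 to 0.33 and an adjusted p of 0.832.

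Oxct1 ranged from 8.42 to 9.17 in LKO_Fed, with a median of 8.72, and from 8.14 to 8.87 in LKO_Fasted, with a median of 8.36. The ranges overlapped broadly. Oxct1 had a log2 fold change of -0.30, with an interval of -0.55 to -0.05, and its adjusted p of 0.0507 missed the threshold. The second probe passed at -0.39 (adjusted p = 0.00703). Without LKO_Fasted replicate 4 the main probe passed too, at -0.33 (adjusted p = 0.0348), as it did without LKO_Fasted replicate 6, LKO_Fed replicate 4, 5 or 6, or LWT_Fasted replicate 2. Over 10 other settings its adjusted p ranged from 0.0368 to 0.257 and was at most 0.05 in 4, and the highest was without LKO_Fasted replicates 1 and 2 (-0.20).

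**Figure D2:**
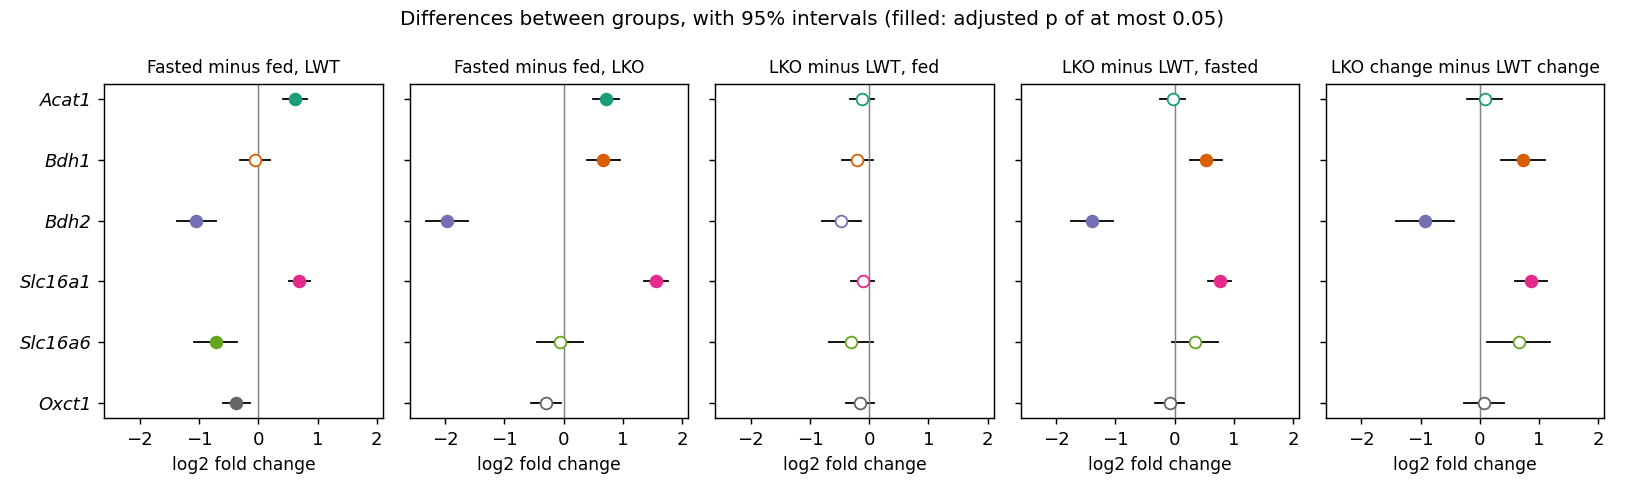
Log2 fold change of each gene in the 5 comparisons, with the 95% interval from the fit to 24 arrays; filled points have an adjusted p of at most 0.05. In fed mice no point is filled, and in the last panel Bdh1, Bdh2 and Slc16a1 are filled, at 0.72, -0.92 and 0.86.

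Whether the response to fasting differed between the genotypes was tested by the interaction, the log2 change in LKO minus that in LWT. Slc16a1 and Bdh1 responded more positively in LKO, and Bdh2 fell further there. These 3 of 6 genes passed, against 7.53% of all genes, and all 3 differed by more than 1.5-fold, against 2.97%. In the direction of Bdh2, 3.60% of all genes passed. The difference for Slc16a1, the carrier, was 0.86 (SE 0.132, adjusted p = 0.000495), so its rise of 0.69 in LWT stood beside one of 1.56 in LKO. It was positive within each slide, at 0.64, 0.90 and 0.96, and its adjusted p stayed at or below 0.05 in every alternative setting.

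For Bdh1, the dehydrogenase of mitochondria, the difference was 0.72 (SE 0.179, adjusted p = 0.0174), from a change of -0.05 in LWT and of 0.67 in LKO. Within slides it was 0.32, 0.74 and 0.56. Without array weights it was 0.54 and no longer passed (adjusted p = 0.0974), nor did it pass with no filter on dim probes (0.69, adjusted p = 0.0555), on the second probe (0.61, adjusted p = 0.0533) or without LWT_Fed replicate 5 (0.68, adjusted p = 0.0568).

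For Bdh2, the cytosolic enzyme, the difference was -0.92 (SE 0.234, adjusted p = 0.02), from changes of -1.05 in LWT and -1.97 in LKO. It was -0.10 on the slide with LKO_Fasted replicate 4 and -0.93 and -1.45 on the others, and it passed without that array (adjusted p = 0.00688). It did not pass without array weights (-0.83, adjusted p = 0.0583) or with no filter (-0.89, adjusted p = 0.0547).

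Slc16a6 passed in LWT and not in LKO, but the difference between the changes, 0.66, did not pass (95% interval 0.12 to 1.19, adjusted p = 0.126). The slides gave it no common direction, at -0.23, 1.38 and 0.77. Acat1 did not pass, with a difference of 0.08 and an interval of -0.22 to 0.38. For Oxct1 the difference was 0.07, with an interval of -0.27 to 0.41.

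**Figure D3:**
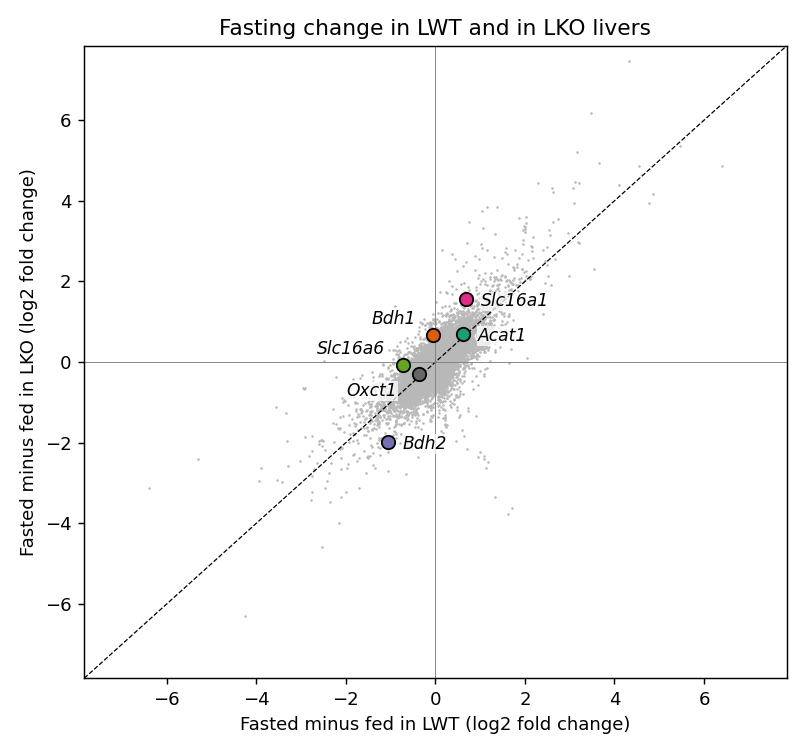
Log2 fold change on fasting in LWT (horizontal) against LKO (vertical) for 21488 genes in grey, with the 6 ketone body genes in colour and a dashed line where both changes are equal. Slc16a1 at 0.69 and 1.56 and Bdh1 at -0.05 and 0.67 lie above the line, Bdh2 at -1.05 and -1.97 lies below it, and Acat1 and Oxct1 lie close to it.

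The effect of genotype was compared next within each feeding state. In fed livers none of the 6 genes passed the test in limma, against 16.2% of all genes and 3.83% with a fold over 1.5, and 1 of 6, Bdh2, had an unadjusted p under 0.05, against 29.8% of all genes. No gene's arrays were free of overlap, against 8.61% of all genes. Bdh2 was closest, with a log2 fold change of -0.47 (SE 0.161, 95% interval -0.80 to -0.13, adjusted p = 0.0527) and 6 of 6 LKO_Fed livers below the LWT_Fed median. Its adjusted p ranged from 0.0229 to 0.108 over the other settings, and it was at most 0.05 in 5 of 10 of them. It also passed without LKO_Fasted replicate 4 (-0.46, adjusted p = 0.0378), and without LKO_Fasted replicate 1, LKO_Fed replicate 3, LWT_Fed replicate 3, or LWT_Fasted replicate 1 or 5.

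The intervals of the other 5 genes in fed livers bound how far LKO could lie from LWT. They ran from -0.32 to 0.09 for Acat1, from -0.45 to 0.06 for Bdh1 and from -0.30 to 0.08 for Slc16a1. For Slc16a6 the interval was -0.67 to 0.06, and for Oxct1 it was -0.39 to 0.08. The point estimates of all 6 genes were negative, at -0.12, -0.20, -0.11, -0.31 and -0.16 in that order and -0.47 for Bdh2, although for Oxct1 the second probe gave 0.06.

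In fasted livers Slc16a1 and Bdh1 were higher and Bdh2 was lower in LKO than in LWT. The count of 3 of 6 stood against 20.0% of all genes, and with a fold over 1.5 it was 2 of 6 against 4.01%. Arrays did not overlap for 1 of 6, Bdh2, against 8.67%. Slc16a1 was 1.69-fold higher (log2 fold change 0.76, SE 0.0967, adjusted p = 1.42e-05). The LKO_Fasted values, from 12.89 to 13.59, met the LWT_Fasted values, from 12.33 to 12.91, at a single pair of arrays, the lower of which was replicate 4.

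Bdh1 was 1.44-fold higher in fasted LKO livers (log2 fold change 0.53, SE 0.131, adjusted p = 0.0065), and 5 of 6 of them were above the LWT_Fasted median. The second probe gave 0.50 (adjusted p = 0.0131), and the slides gave 0.11, 0.52 and 0.54. Bdh2 was 2.62-fold lower (log2 fold change -1.39, SE 0.171, adjusted p = 9.7e-06), and its highest LKO_Fasted value of 10.56 was below the lowest LWT_Fasted value of 10.69. On the slide with replicate 4 the difference was -0.49, against -1.46 and -1.85 on the others.

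The other 3 genes did not pass in fasted livers. Acat1 differed by -0.03 on the log2 scale, with an interval of -0.25 to 0.18. Oxct1 differed by -0.08, with an interval of -0.33 to 0.16. Slc16a6 differed by 0.35, with an interval of -0.04 to 0.74 and an adjusted p of 0.208, and 5 of 6 LKO_Fasted livers were above the LWT_Fasted median.

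**Figure D4:**
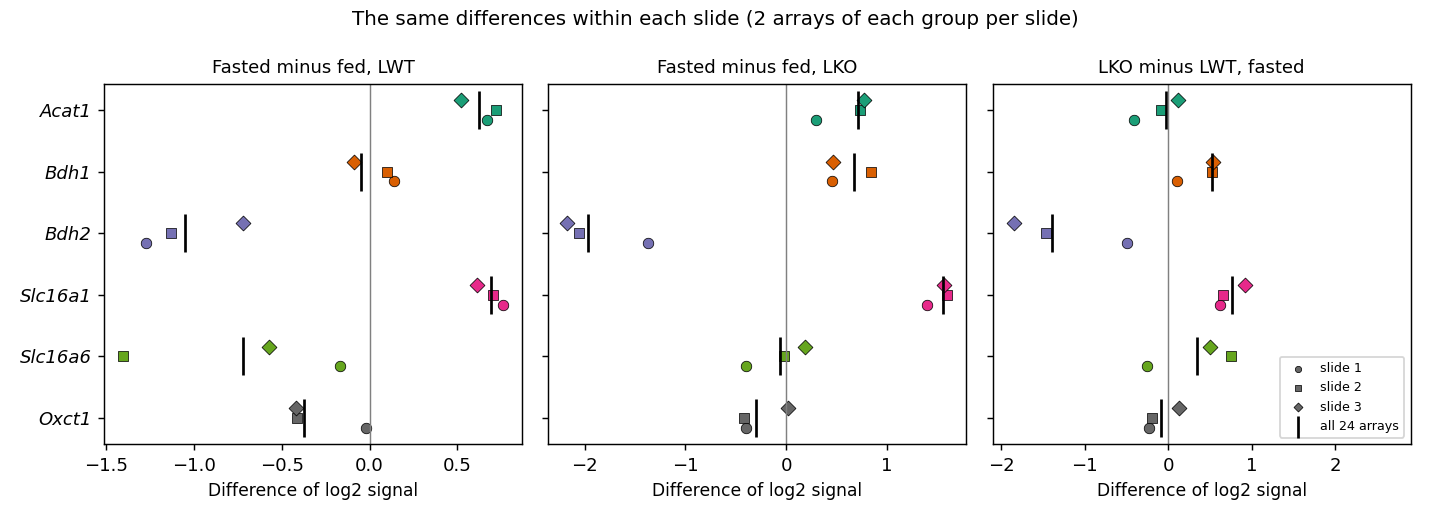
Difference of mean log2 signal within each of 3 slides, from 2 arrays per group and slide, for fasting in LWT, fasting in LKO and genotype in fasted mice; the vertical bar is the fitted log2 fold change over 24 arrays. All slides have the same sign for Slc16a1 and Bdh2 in each panel, whereas slide 1, which carries LKO_Fasted replicate 4, gives the smallest genotype difference for Bdh2, -0.49.

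Set in order of their mean log2 signal over the 4 groups, the genes fell into different patterns. Slc16a1 ran from LKO_Fed (11.82 ± 0.07, SD, n = 6) and LWT_Fed (11.92 ± 0.08), which did not differ by the test, to LWT_Fasted (12.61 ± 0.22) and LKO_Fasted (13.34 ± 0.25). Bdh2 ran the other way, from LKO_Fasted (9.81 ± 0.42) through LWT_Fasted (11.08 ± 0.39) to LKO_Fed (11.68 ± 0.22) and LWT_Fed (12.12 ± 0.18), with no called difference between the fed groups. Bdh1 ran from LKO_Fed (14.12 ± 0.25) through LWT_Fed (14.27 ± 0.22) and LWT_Fasted (14.32 ± 0.26) to LKO_Fasted (14.71 ± 0.28). Of these neighbours, LKO_Fed and LWT_Fed, and LWT_Fed and LWT_Fasted, had no called difference. Acat1 split by feeding state, with LKO_Fed (13.01 ± 0.18) and LWT_Fed (13.10 ± 0.09) below LKO_Fasted (13.61 ± 0.41) and LWT_Fasted (13.73 ± 0.10). The SD of 0.41 in LKO_Fasted came with replicate 4 at 12.79. For Slc16a6, LWT_Fasted was lowest (9.79 ± 0.28) and LWT_Fed highest (10.50 ± 0.33), with LKO_Fasted (10.12 ± 0.34) and LKO_Fed (10.20 ± 0.35) between them. For Oxct1 all 4 means lay between 8.47 and 8.85.

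Genes whose pattern over 24 arrays was most like that of a member were found by the root mean square difference of log2 signals after centring each gene on its own mean. The 3 closest to Slc16a1 were Scyl2 (0.186), Bace1 (0.194) and Atf5 (0.196), against a root mean square of 0.632 for Slc16a1 about its own mean. Closest to Bdh2, whose own value was 0.916, were Dexi (0.31), Car5a (0.312) and Ido2 (0.314). Closest to Acat1, with 0.38, were Cpox (0.131), Dhrs4 (0.149) and Dgka (0.16). For Bdh1 they were Hacd1 (0.174), Abhd4 (0.19) and Htatip2 (0.195), against 0.317. For Slc16a6 they were Mal2 (0.209), Pdgfa (0.211) and 1700048O20Rik (0.232), against 0.391. Oxct1 had no comparison with a fold over 1.5 and was not matched. Cpox, an enzyme of haem synthesis, rose by 0.62 in LWT and 0.68 in LKO on fasting, next to 0.62 and 0.71 for Acat1.

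Other genes of the pathway were described by lists. The list of ketogenic enzymes besides the 6 genes also held enzymes of the β-oxidation that feeds the pathway. Those named below are of this kind. Of its 7 measured genes, 5 rose and none fell on fasting in LWT, when 19.4% of all genes rose. The median log2 fold change was 0.34, against -0.01 over all genes. In LKO 6 of 7 rose, with a median of 0.65 against -0.02 and 19.6% of all genes. Hadhb and Hadha, the subunits of the mitochondrial trifunctional protein of β-oxidation, rose by 0.90 (adjusted p = 9.4e-10) and 0.63 (adjusted p = 1.21e-05) in LWT and by 1.27 (adjusted p = 1.58e-11) and 1.11 (adjusted p = 1.2e-08) in LKO. Both had a larger rise in LKO, with an interaction of 0.37 (adjusted p = 0.0283) for Hadhb and 0.48 (adjusted p = 0.0365) for Hadha. Hadh, a 3-hydroxyacyl-CoA dehydrogenase, rose by 0.34 (adjusted p = 0.00907) and 0.45 (adjusted p = 0.00204), whereas the enoyl-CoA hydratase Echs1 did not pass in either genotype (-0.02 and -0.14). In fed livers 1 of 7 was lower in LKO, when 7.47% of all genes were, and none was higher, when 8.72% were, with a median of -0.12. The thiolase Acaa2 differed there by -0.08, Hadh by -0.22 and Echs1 by -0.12, none of which passed.

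Of 6 measured genes of ketone body, acetoacetyl-CoA and acetate use, 1 rose and 4 fell on fasting in LWT. Their median was -0.65, when 19.4% of all genes rose and 21.3% fell. In LKO none rose and 3 fell, with a median of -0.82, against 21.7% of all genes. Aacs, the cytosolic acetoacetyl-CoA synthetase that feeds ketone bodies into lipid synthesis, fell by 2.75 on the log2 scale in LWT (adjusted p = 3.87e-07), and its change in LKO was -3.22 (adjusted p = 1.07e-07). Acss2, which makes cytosolic acetyl-CoA from acetate, fell by 1.80 (adjusted p = 2.18e-10) and by 1.78 (adjusted p = 6.28e-10). It was also lower in LKO than in LWT among fed livers, by -0.82 (adjusted p = 0.000198). Acat3, a thiolase of the cytosol, fell by 0.64 in LWT (adjusted p = 0.00134) and by 1.35 in LKO (adjusted p = 5.9e-07), and the interaction of -0.71 did not pass (adjusted p = 0.0511). Oxct2b, a relative of Oxct1 known from testis, rose by 0.39 in LWT (adjusted p = 0.0414) and was at 0.06 in LKO (adjusted p = 0.79). Acss1, the mitochondrial acetyl-CoA synthetase, did not pass in either (-0.06 and -0.05). None of the 6 passed the interaction, which 7.53% of all genes did, so the count is near that share.

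Of 12 measured monocarboxylate carriers and partners, 5 rose and 2 fell on fasting in LWT, and 4 rose and 4 fell in LKO. Over all genes 19.4% rose and 21.3% fell in LWT, and 19.6% rose and 21.7% fell in LKO. The medians of the list were 0.03 and 0.01. Slc16a5, which encodes MCT6, rose by 2.64 in LWT (adjusted p = 4.18e-09) and by 3.48 in LKO (adjusted p = 1.78e-10), with an interaction of 0.84 that did not pass (adjusted p = 0.117). Slc16a7, which encodes the pyruvate carrier MCT2, rose by 0.61 (adjusted p = 0.000189) and 0.55 (adjusted p = 0.00123). Slc16a13 rose by 0.90 (adjusted p = 0.000752) and 0.89 (adjusted p = 0.00164), from a fed level that was lower in LKO by -1.05 (adjusted p = 0.00105). The aromatic amino acid carrier Slc16a10 was higher in LKO among fed livers by 0.40 (adjusted p = 0.0109) and rose on fasting by 0.38 in LWT (adjusted p = 0.00464), while its change in LKO was 0.02 (adjusted p = 0.905). Slc5a12, a sodium-coupled lactate carrier, was well above background on 6 of 6 LKO_Fed arrays and on 0 of 6 LWT_Fed arrays. Its measured log2 means there were 6.03 and 5.36, both low. Slc5a12 passed the filter through LKO_Fed alone, so its own tests are not given here, although it is counted among the 4 that fell in LKO. No carrier of this list passed the interaction in the positive direction, and 1 of 12, Slc16a12, passed in the negative (-0.62, adjusted p = 0.0328), a gene singled out after its value was seen. Over all genes 3.93% passed the interaction upwards and 3.60% downwards, so these counts are near the share of all genes.

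Of 14 genes of fatty acid entry and control of ketogenesis, 13 rose and none fell on fasting in LWT, with a median of 0.93, when 19.4% of all genes rose. In LKO 12 rose and none fell, with a median of 1.28, when 19.6% of all genes rose. In the interaction 9 of 14 passed upwards and none downwards, with a median of 0.36 against -0.00 over all genes, of which 3.93% passed upwards. Cpt1a, the carnitine palmitoyltransferase that admits fatty acids to mitochondria, rose by 1.27 in LWT (adjusted p = 2.97e-11) and by 1.64 in LKO (adjusted p = 1.36e-12). Fgf21, a hepatokine of fasting, rose by 3.16 (adjusted p = 2.91e-09) and 5.21 (adjusted p = 3.82e-12), and its interaction was 2.05 (adjusted p = 0.00217). Its fed level was lower in LKO, by -1.18 (adjusted p = 0.00339). Slc25a20, the carnitine-acylcarnitine carrier, rose by 0.97 and 1.43 with a fed difference of -0.41 (adjusted p = 0.00454), and Creb3l3, a liver transcription factor, rose by 0.59 and 0.95 with a fed difference of -0.22 (adjusted p = 0.00772). Ppara, the nuclear receptor of the fasted liver, rose by 0.89 in LWT and 0.87 in LKO with an interaction of -0.02 (adjusted p = 0.923). Acadm, the medium-chain acyl-CoA dehydrogenase, rose by 1.01 and 1.21, and its interaction of 0.20 did not pass (adjusted p = 0.32).

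**Figure D5:**
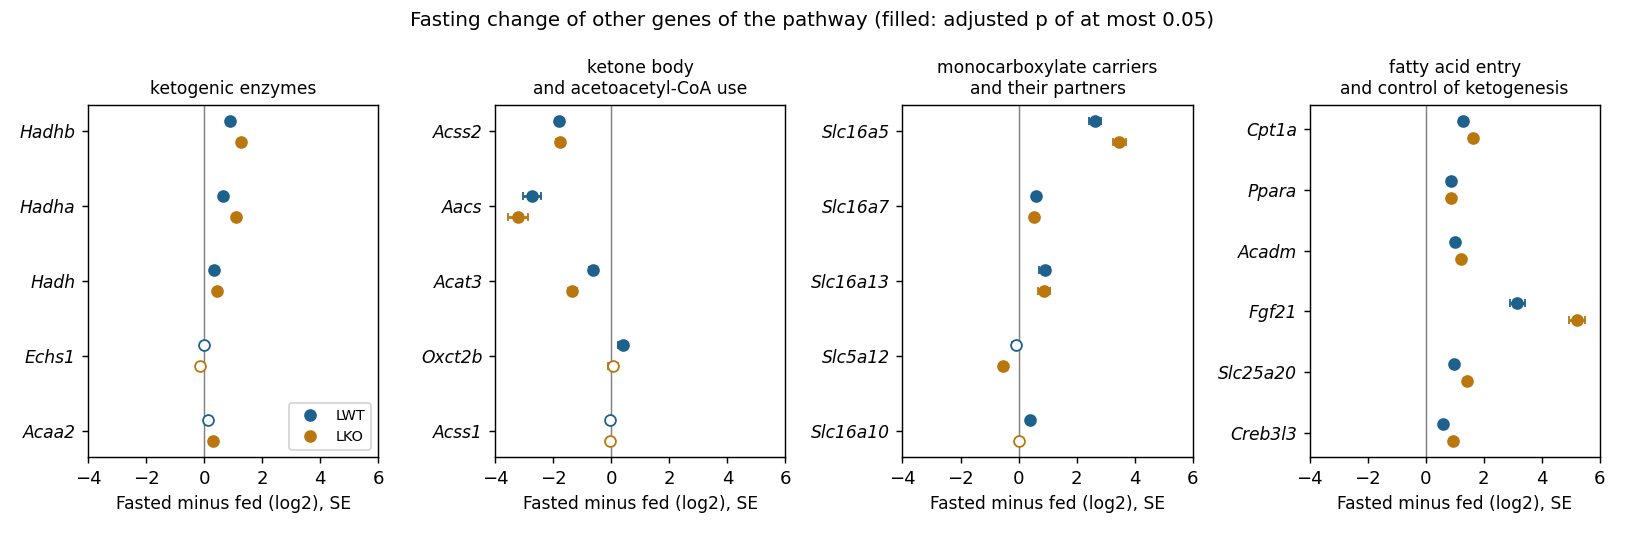
Log2 fold change on fasting, with SE, in LWT (blue) and LKO (brown) for the named genes of 4 pathway lists; filled points have an adjusted p of at most 0.05. Aacs, Acss2 and Acat3 lie left of 0 in both genotypes, and Slc16a5 and Fgf21 lie furthest to the right, at 3.48 and 5.21 in LKO.

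Markers of cell types were read beside these results. Of 8 hepatocyte markers, 2 were lower in LKO_Fasted than in LWT_Fasted, Hnf4a (-0.24, adjusted p = 0.0271) and Ttr (-0.41, adjusted p = 2.2e-05), and their summed signal ranged from 1948060 to 2002328 in LWT_Fasted and from 1795125 to 1877412 in LKO_Fasted. Over all genes 10.2% were lower in LKO among fasted livers and 7.47% among fed livers, where 1 of 8, Ttr, was lower (-0.21, adjusted p = 0.00732). On fasting in LWT, Hnf4a (0.57, adjusted p = 9.61e-07) and Apob (0.24, adjusted p = 0.0167) rose and Ttr fell (-0.17, adjusted p = 0.00813). In LKO, Hnf4a rose (0.28, adjusted p = 0.00431) and Ttr fell (-0.37, adjusted p = 9.79e-06). The summed signal of 5 cholangiocyte markers ranged from 2096 to 3425 in LWT_Fed and 1722 to 2200 in LWT_Fasted, and from 783 to 1838 in LKO_Fed and 507 to 1174 in LKO_Fasted. Of these 5, 3 were lower in LKO among fed livers and 2 among fasted livers, with Spp1 at -1.50 and -2.11, against the same shares of all genes. Both counts include Epcam, which passed the filter through the LWT groups alone, so its calls carry no weight here. It was well above background on 6 of 6 arrays of each LWT group, on 2 of LKO_Fed and on 1 of LKO_Fasted. The others were Krt19 and Spp1 among fed livers and Spp1 among fasted livers. On fasting, Sox9 rose in LWT and LKO (0.55 and 0.57), Krt19 fell in both (-0.67 and -0.59), Krt7 fell in LWT (-0.27) and Spp1 fell in LKO (-0.96). Of 4 measured adipose markers 1, Cfd, was lower in LKO in both states, at -2.78 and -3.04, and 1, Lep, fell on fasting in LWT and LKO, at -0.22 and -0.29. None of 8 Kupffer cell markers passed in any comparison, although their median log2 fold change was -0.42 on fasting in LWT, -0.38 for genotype in fed mice and 0.44 in the interaction, where all 8 values were positive (0.19 to 1.17). Their summed signal ranged from 36232 to 49404 in LWT_Fed, 21838 to 52582 in LWT_Fasted, 27993 to 48140 in LKO_Fed and 21135 to 90358 in LKO_Fasted. None of 4 muscle markers passed, and Ckm and Acta1 were not well above background on any array. Sinusoidal endothelium had at most 1 of 8, erythroid cells at most 1 of 5, and T and B cells at most 1 of 4 past the test in a comparison. Between genotypes, Lyve1 of the endothelium was lower in LKO among fed livers (-0.88, adjusted p = 0.0425). The erythroid Alas2 was lower in LKO among fed (-0.80, adjusted p = 0.00181) and fasted livers (-0.83, adjusted p = 0.00136). Over all genes 16.2% passed for genotype among fed livers and 20.0% among fasted livers. Stellate cell markers passed in 4 of 7 on fasting in LWT, 2 up and 2 down, in 3 of 7 on fasting in LKO and in none between genotypes. Over all genes 40.7% passed on fasting in LWT and 41.3% in LKO, so the stellate counts on fasting are near the share of all genes. The part of these cells in the results for the 6 genes was not tested.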

How the data were processed

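Liver RNA of 24 mice was labelled with Cy3 by the authors and hybridised to 1-colour Agilent arrays of 60-base probes, 1 liver per array, and scanned images were quantified in Feature Extraction 10.10.1.1, as the submitters' processing notes name it. The deposited files give, per the file headers, pixel intensity per spot, not scaled between arrays, with probe positions in mm9 (NCBI37). The authors' series matrix holds log2 values of the median signal after a filter, a washing bath correction and quantile normalization. The filter's rule and each array's bath are not given in the sources used here.

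For the results, the log2 median signal of probes well above background on at least 5 of 6 arrays of a group (32197 probes) was quantile normalized and fitted in limma 3.58.1 (R 4.3.3; lmFit, arrayWeights, eBayes) with group means and slide, which stood in for the bath. All 24 arrays shared one fit. Tests were two-sided, with Benjamini-Hochberg adjustment over the whole set of probes kept. Means and ranges are of normalized log2 signals, whereas fold changes come from the weighted fit, so both can differ. Levels of different probes were not compared. The number of arrays limits precision. The p-values weigh a difference against the spread among arrays of a group, in which mouse and array cannot be told apart.

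The 6 genes and all lists were chosen with earlier results of these data known. Named from each pathway list were the 3 genes with the lowest p for fasting in LWT and the 3 for genotype in fed mice, and the 3 genes most like each member with a fold over 1.5 in a comparison. Some genes meet these rules and are not reported here, though they are counted in their list. Alternatives were the processed signal scaled to the 75th percentile, normexp background with offset 50, the series matrix, other filters, no weights, no slide, a replicate block, only the groups compared, arrays left out, single slides and other probes.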

Additional observations from a re-analysis of the deposited data

Results flagged for a closer look

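An array was checked for standing apart in each of 24 groups of 6 arrays, 4 for each gene, and 3 groups held one. LKO_Fasted replicate 4 was low for Acat1, at a log2 signal of 12.79 with the nearest array at 13.65. The same array was low for Slc16a1, at 12.89 with the nearest at 13.33. LWT_Fasted replicate 2 was high for Bdh1, at 14.81 with the nearest at 14.34. The limit used marks about 1 in 20 groups by chance.

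The fasting change differed between genotypes by the interaction test for 3 genes. The log2 change in LKO minus that in LWT was 0.72 for Bdh1, which did not change in LWT by the test. It was 0.86 for Slc16a1, which rose in both genotypes, and -0.92 for Bdh2, which fell in both.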

How the results depend on the processing

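The count of genes past the test kept within 1.5 times its value for fasting in LWT, fasting in LKO and genotype in fasted mice under all settings run. For genotype in fed mice it rose from 0 to 1, Bdh2, with the processed signal, normexp background, the series matrix, no slide term and the compared groups alone, and ranged from 0 to 1 when 1 array was left out. For the interaction it fell from 3 to 1 with no filter and with no array weights. The cause was not tested. Over all genes, the interaction called 844 higher and 773 lower, against 438 and 386 with no filter, 1316 and 1177 with normexp background, 973 and 1412 without LKO_Fasted replicates 1 and 2, 570 and 478 without LKO_Fasted replicate 6, and 470 and 417 without LWT_Fed replicate 5. With a fold over 1.5 it called 322 higher and 317 lower, against 385 and 796 without LKO_Fasted replicates 1 and 2, 329 and 534 without replicate 1, 355 and 581 without replicate 2, and 259 and 207 without replicate 6 of that group. For genotype in fed mice the counts were 1873 and 1606, against 1290 and 987 without LWT_Fed replicate 5, and with a fold over 1.5 they were 570 and 252, against 1020 and 399 with the processed signal and 353 and 199 among probes above background on all arrays. For fasting in LWT those with a fold over 1.5 were 1026 and 1118, against 1544 and 1651 with the processed signal. For genotype in fasted mice they were 2104 and 2199, against 1253 and 1428 in the compared groups alone, and with a fold over 1.5 they were 383 and 478, against 572 and 729 with the processed signal. Among single genes, leaving out 1 array left 696 values on their side of the threshold with their sign, and 11 changed sign, all of them values that had not passed. Their ranges were -0.11 to 0.00 for Bdh1 and fasting in LWT, -0.19 to 0.05 for Slc16a6 and fasting in LKO, -0.10 to 0.04 for Acat1 and genotype in fasted mice, and -0.00 to 0.16 for Acat1 and -0.05 to 0.15 for Oxct1 in the interaction. Other settings changed the sign of Bdh1 for fasting in LWT (0.05 without weights, 0.01 on the other probe), Slc16a6 for fasting in LKO (0.01 with the processed signal, 0.06 without LKO_Fasted replicates 1 and 2), Oxct1 for genotype in fed (0.06, other probe) and fasted mice (0.02 without LKO_Fasted replicates 1 and 2), and the interactions of Acat1 (-0.03 without weights) and Oxct1 (-0.07, other probe). Within slides, 26 of 90 values moved by more than 1 SD. Replicate numbers did not pair the mice, with correlations of deviations between -0.18 and 0.275 and 4 of 36 pairs over 0.1. With a replicate block, the interaction was 0.90 for Slc16a1, 0.76 for Bdh1 and -0.95 for Bdh2, and no call for the 6 genes changed.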
